A study of Mus musculus with 6 samples.

Results

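PTF1 is the transcription factor complex that drives the digestive enzyme genes of pancreatic acinar cells, and its 6 genes are described here in control and Trip12 knockout mouse pancreas. They are Ptf1a, Rbpjl, Rbpj, Tcf3, Tcf4 and Tcf12, taken by name as the subunits of the complex, whatever their values, out of 55414 genes listed. RNA sequencing was done on acinar cells of untreated adult mice. The 3 control preparations had the genotype Pdx1Cre;Trip12+/+ and the 3 knockout preparations Pdx1Cre;Trip12fl/fl, so that both groups carried the Cre recombinase and only the knockouts carried the floxed Trip12 alleles. Each preparation gave 1 library. In Pdx1Cre the recombinase is driven by Pdx1, which is active in the progenitors of acinar, duct and islet cells, and cells of other origins in a preparation keep Trip12. The labels call the preparations biological replicates 1 to 3 of each group without saying what a number stands for, so p-values measure the spread between these preparations.

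PTF1 is a trimer. PTF1A is a tissue-restricted basic helix-loop-helix (bHLH) protein, it pairs with a broadly expressed E protein (TCF3, TCF4 or TCF12), and the pair recruits RBPJ or its pancreas-restricted relative RBPJL. RBPJ is also the DNA-binding protein of the Notch pathway. In pancreas development the complex with RBPJ acts first and turns on Rbpjl, and RBPJL then takes the place of RBPJ in the acinar complex. TRIP12 is an E3 ubiquitin ligase known to bind PTF1A and to promote its degradation, an action on the protein that RNA counts do not measure.

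The complex binds a 2-part DNA site, an E box (CANNTG) for the bHLH pair and a TC box (TTCCCA, read TGGGAA on the opposite strand) for RBPJ or RBPJL. The stretches below are shown because they are where these letters stand near the start sites of members and of 3 enzyme genes. They come from RefSeq promoter windows of build GRCm38.p6, 250 bases before to 50 bases after each gene start, are written 5′ to 3′ on the gene's own strand, and have 1 E box and 1 TC box in capitals. The Rbpjl stretch is chr2:164403064-164403143 (plus strand) and the Rbpj stretch chr5:53590172-53590251 (plus strand). The Ptf1a stretch is chr2:19445457-19445536 (plus strand), and that window has only a TC box.
Rbpjl: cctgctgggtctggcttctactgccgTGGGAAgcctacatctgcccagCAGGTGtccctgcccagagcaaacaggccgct
Rbpj: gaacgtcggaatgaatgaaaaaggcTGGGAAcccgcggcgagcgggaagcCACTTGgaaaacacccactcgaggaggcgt
Ptf1a: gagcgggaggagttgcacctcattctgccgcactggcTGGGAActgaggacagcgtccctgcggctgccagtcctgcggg

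The stretches of enzyme genes are from Ctrb1 (a chymotrypsinogen, chr8:111691168-111691247), Cela2a (an elastase, chr4:141826065-141826144) and Cel (a lipase, chr2:28563437-28563516), all on the minus strand.
Ctrb1: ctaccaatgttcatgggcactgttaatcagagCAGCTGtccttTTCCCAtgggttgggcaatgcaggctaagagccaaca
Cela2a: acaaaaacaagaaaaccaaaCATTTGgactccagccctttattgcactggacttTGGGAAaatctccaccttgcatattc
Cel: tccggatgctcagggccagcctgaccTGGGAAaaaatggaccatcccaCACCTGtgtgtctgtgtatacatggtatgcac

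In the Rbpjl stretch the capitals stand 16 bases apart, and a further E box in lower case lies 5 bases from the TC box. The boxes are 19 bases apart in Rbpj, 5 in Ctrb1, 28 in Cela2a and 16 in Cel. An E box and a TC box with at most 30 bases between them, on either strand and not overlapping, counted as a pair. A window matched 5 of the 6 members by symbol. A pair was present for Rbpjl and for Rbpj, while another Rbpj window had a TC box and no E box. The Tcf3 and Tcf12 windows had E boxes and no TC box, and the Ptf1a window had a TC box and no E box. Over all 32851 windows, 72.3% held an E box, 25.6% a TC box and 6.97% a pair. These letters are therefore common, and a match is not a binding site.

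The libraries held 31019500 to 34041901 gene counts. Levels are given as CPM, a gene's counts relative to the size of the library after scaling with TMM factors. In control replicates 1 to 3 Trip12 itself measured 29.0, 22.3 and 26.4 CPM, and in the matching knockouts 14.4, 14.7 and 13.0 CPM, with a log2 fold change of -0.89 (SE 0.14; edgeR adjusted p = 0.0256, and 0.00474 with the block); 7 of 20 alternative fits did not call it. Xist and 4 Y-linked genes marked control replicate 1 and all 3 knockouts as male and control replicates 2 and 3 as female, so sex and genotype are partly confounded. The 7 acinar markers summed to 419775 to 557293 CPM in controls and to 368899 to 375515 CPM in knockouts. The sum was thus high in every library and lower in each knockout than in each control, although Cpa1 and Ctrb1 among the 7 overlapped between groups. The markers' median log2 fold change was -0.49, and -0.06 with library totals. In these bulk preparations fewer acinar cells and less RNA per cell cannot be told apart. Scaling matters for every small difference below: scaled by library totals alone, the median gene moved from a log2 fold change of 0.02 to 0.43.

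Across the complex, Rbpjl stood at 236% of its control level in the knockout preparations, the difference in Ptf1a depended on how reads were counted, and no difference was called for Rbpj or the 3 E proteins. All 6 members passed the filter on low counts. None of the 6 was called by edgeR at an adjusted p under 0.05 without a block for the replicate number, where 0.945% of 13115 tested genes were called. At an unadjusted p under 0.05, 1 member passed, against 16.7% of all genes, and DESeq2 called 1 member, against 4.53%, and limma-voom none. Blocked on the replicate number, edgeR called 2 members, Rbpjl and Ptf1a, against 5.99% of all genes. Blocked values are given beside the members because same-numbered control and knockout libraries deviated together in all 3 pairs. The labels do not state such a pairing, so blocked p-values hold only if the numbers do pair the libraries.

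**Figure D1:**
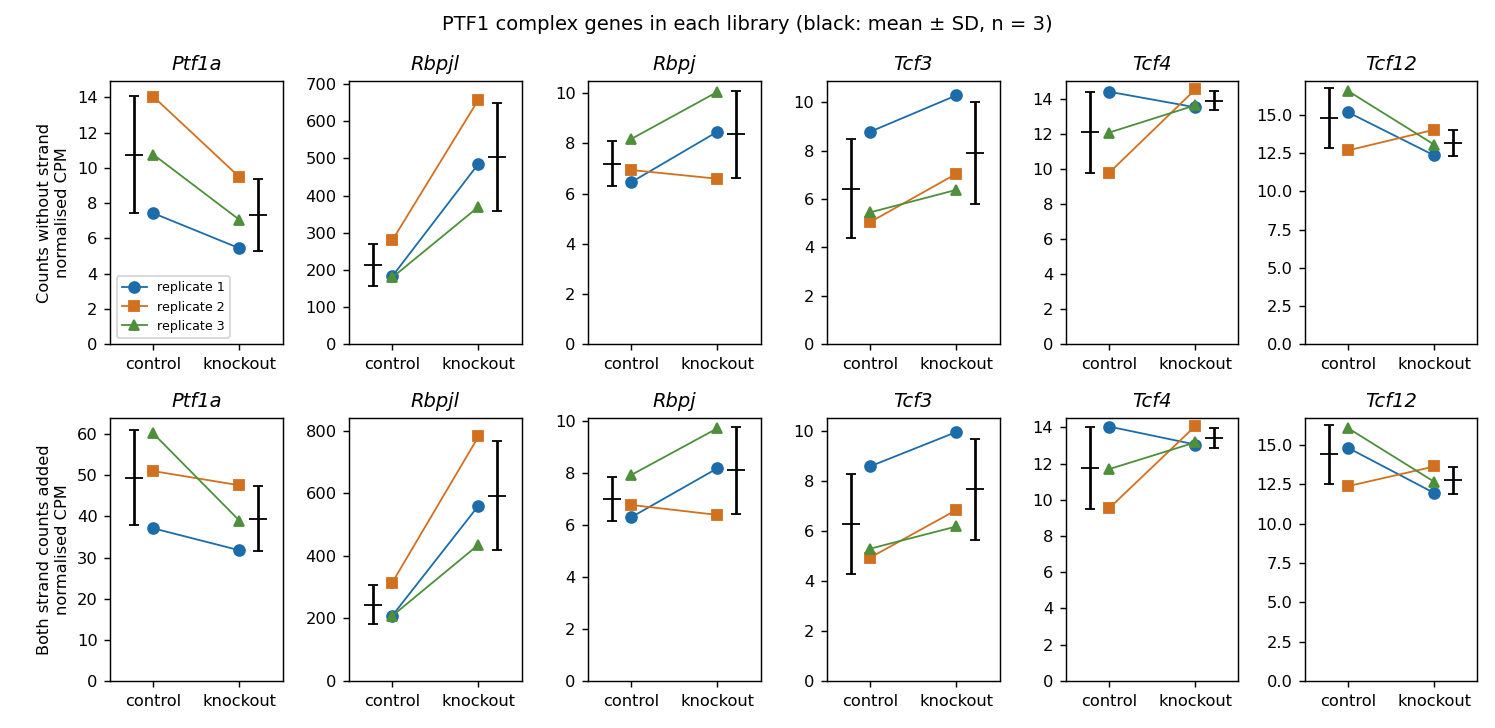
Levels of the 6 PTF1 genes in each library as CPM with TMM factors (upper row, counts without strand; lower row, both strand counts added; vertical axes from 0; lines join libraries of the same number; black bars are the mean and SD, n = 3). In the upper row Rbpjl is the only member whose 3 knockout values (370 to 658 CPM) all lie above its 3 control values (180 to 280 CPM).

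Rbpjl encodes the acinar form of the RBPJ subunit. In control replicates 1 to 3 it measured 183, 280 and 180 CPM, and in knockout replicates 1 to 3 it measured 486, 658 and 370 CPM. The groups did not overlap, a pattern seen upward in 12.0% of all genes, and the knockout of each numbered pair was the higher one. The means were 214 CPM ± 56.8 (SD, n = 3) and 505 CPM ± 145, and the log2 fold change was 1.24 (SE 0.26). The adjusted p was 0.0685 in edgeR without the block, and with the block Rbpjl rose by 1.23 (SE 0.17) with an adjusted p of 0.00203.

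The blocked call for Rbpjl was made without pair 1 (log2 fold change 1.12, adjusted p = 0.0232 in edgeR) and without pair 3 (1.32, adjusted p = 8.28e-06), but not without pair 2 (1.23, adjusted p = 0.124). Pair 2 holds the highest control and the highest knockout value. Among the males alone, control replicate 1 at 183 CPM stood against knockouts of 370 to 658 CPM, and with sex as a covariate the log2 fold change was 1.47 with an adjusted p of 0.292. The direction was the same in 34 of 34 alternative fits, and 13 of them called it. The share of all genes called was 11.6% with library totals, 3.3% with no filter, 1.89% with at least 10 counts in every library, 1.31% on the forward strand and 1.15% on the reverse strand, and Rbpjl was called in each of these. Leaving out 1 library at a time without the block gave log2 fold changes from 0.99 to 1.48 and adjusted p-values in edgeR from 0.0844 to 0.234.

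Ptf1a encodes the acinar bHLH subunit. Its counts placed without regard to strand were low, at 236, 342 and 296 in controls and 203, 332 and 263 in knockouts. As levels these were 7.43, 14.0 and 10.8 CPM in the controls, against 5.44, 9.48 and 7.05 CPM in the knockouts. The groups overlapped, while the knockout was lower in each of the 3 pairs, as were 20.7% of all genes. The control mean was 10.7 CPM ± 3.31 (SD, n = 3) and the knockout mean 7.32 CPM ± 2.03, and the log2 fold change was -0.55 (SE 0.28; edgeR adjusted p = 0.374). With the block it was -0.54 (SE 0.14; edgeR adjusted p = 0.0460), and leaving out any 1 of the 3 pairs ended that call.

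The low Ptf1a counts follow from how reads were counted. In the GENCODE M21 annotation Ptf1a has 1508 exonic bases, of which 609 are shared with Ptf1aos, an antisense gene on the opposite strand. A read over exons of 2 genes is ambiguous when strand is ignored and goes to neither. The same tables also hold a count for each strand, and adding these 2 counts per gene keeps such reads. Added in this way, Ptf1a had 1208, 1274 and 1709 counts in controls and 1227, 1721 and 1503 in knockouts. The counts without strand had left out 73.2% to 83.5% of these, the smallest share in control replicate 2, the library with the highest Ptf1a value without strand.

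For Ptf1aos, adding the strands brought in exactly as many counts as for Ptf1a in 6 of 6 libraries. Outside the shared bases Ptf1aos has 307 exonic bases, and its count without strand was 0 to 5 per library. The libraries do not mark strand, with 50.1% to 50.3% of the gene counts of both strands on the forward strand, so reads in the shared bases cannot be assigned to either gene by their orientation.

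On the added counts Ptf1a measured 37.1, 51.0 and 60.2 CPM in controls and 31.8, 47.6 and 39.0 CPM in knockouts. The groups overlapped, and the knockout was lower in all 3 pairs, as were 20.6% of all genes. The control mean was 49.4 CPM ± 11.6 (SD, n = 3) and the knockout mean 39.4 CPM ± 7.91. The log2 fold change was -0.33 (SE 0.21; edgeR adjusted p = 0.500), and with the block -0.32 (adjusted p = 0.233), so the blocked call made without strand was not made with all reads. The direction turned to 0.11 with library totals and to 0.09 with sex as a covariate.

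Rbpjl overlaps too, but less: 149 of its 5732 exonic bases are shared with Matn4 on the opposite strand. The counts without strand left out 13.4% to 18.5% of the reads over Rbpjl. On the added counts Rbpjl measured 209, 315 and 208 CPM in controls and 560, 782 and 436 CPM in knockouts. The groups again did not overlap, as upward in 11.7% of all genes. The means were 244 CPM ± 61.4 (SD, n = 3) and 593 CPM ± 175, and the log2 fold change was 1.28 (SE 0.26; edgeR adjusted p = 0.0576, and 0.00210 with the block). With added strands and no block no member was called, against 1.19% of all genes. At an unadjusted p under 0.05, 1 member passed. The share of all genes at that p was counted only without strand, where it was 16.7%. With added strands and the block Rbpjl was the only member called, against 5.51% of 14536 tested genes. In the other 4 members at most 0.205% of the reads were left out, so either count gives the same picture for them.

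**Figure D2:**
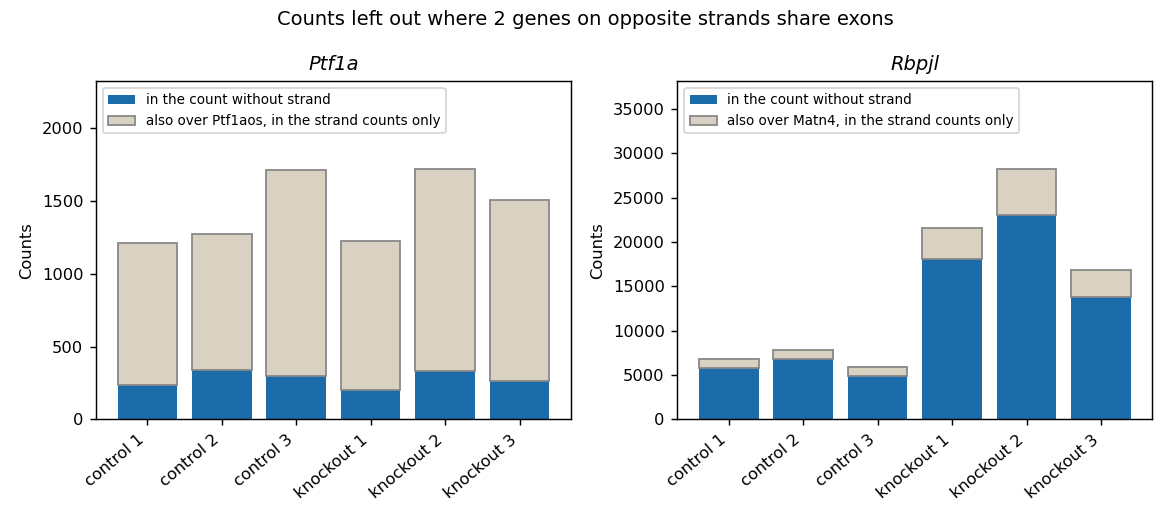
Counts over Ptf1a (left) and Rbpjl (right) in each library, split into those in the count without strand (lower, dark part) and those that also lie over the antisense neighbour and are only in the strand counts (upper, pale part). The pale part is 73.2% to 83.5% of the reads over Ptf1a and 13.4% to 18.5% of those over Rbpjl.

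Rbpj encodes the widely expressed subunit that also serves Notch signalling. The controls measured 6.46, 6.94 and 8.18 CPM, the knockouts 8.47, 6.59 and 10.1 CPM. The groups overlapped, with knockout replicate 2 among the controls. The log2 fold change was 0.22 (SE 0.18; edgeR adjusted p = 0.615, and 0.467 with the block). The pseudogene Rbpj-ps3 had 1 to 13 counts per library and Rbpj-ps1 had 0 in all 6, so few reads were assigned to these copies. Reads that mapped to several places went to no gene, and how many Rbpj lost in this way was not tested.

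Tcf3 encodes the E proteins E12 and E47. It measured 8.79, 5.05 and 5.45 CPM in controls and 10.3, 7.05 and 6.38 CPM in knockouts. The groups overlapped, and the knockout was higher in all 3 pairs, as were 24.2% of all genes. The log2 fold change was 0.29 (SE 0.26; edgeR adjusted p = 0.643, and 0.263 with the block), and it turned to -0.15 with sex as a covariate. Replicate 1 had the highest Tcf3 value in both groups. The 8 B cell markers were also highest in those libraries, with sums of 93.3, 23.4 and 0.836 CPM in controls and 56.3, 8.14 and 7.51 CPM in knockouts, and 4 of the 8 were at 0 in control replicate 3. This was not particular to B cells. The T cell sums (13.5 and 6.57 CPM) and endothelial sums (111 and 128 CPM) were also highest in replicate 1 of both groups. So were those of the fibroblast and stellate, islet, plasmacytoid dendritic and adipocyte markers. Those of the acinar, duct, macrophage, and Schwann and neuron markers were not. The part of any of these cells in the Tcf3 values was not tested.

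Tcf4, the E protein gene also abundant in plasmacytoid dendritic cells, measured 14.4, 9.78 and 12.1 CPM in controls and 13.5, 14.5 and 13.6 CPM in knockouts. The 3 knockouts lay close together and overlapped only the highest control. The log2 fold change was 0.20 (SE 0.16; edgeR adjusted p = 0.584, and 0.448 with the block), and it was -0.05 with sex as a covariate. The 5 plasmacytoid dendritic markers summed to 6.62 to 21.7 CPM in controls and 9.99 to 19.5 CPM in knockouts. Bst2 alone was higher, with means of 6.50 and 10.1 CPM (edgeR adjusted p = 0.107, and 0.0287 with the block), and the means of the other 4 were lower in knockout. Their part in the Tcf4 values was not tested.

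Tcf12 encodes the E protein HEB. Its values were 15.2, 12.7 and 16.6 CPM in controls and 12.4, 14.0 and 13.1 CPM in knockouts. The groups overlapped, and the log2 fold change was -0.17 (SE 0.14; edgeR adjusted p = 0.599, and 0.540 with the block). Its sign depended on scaling, since library totals gave 0.23. No E protein gene therefore had a difference that passed the test.

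Counts per length allow the members to be set in order. Divided by kilobases of exon, with both strand counts added, the control means were 42.5 CPM per kilobase for Rbpjl and 32.8 for Ptf1a. They were 1.55 for Tcf3, 0.928 for Tcf12, 0.549 for Rbpj and 0.429 for Tcf4. In the control libraries, over these lengths, the ranges of Rbpjl and Ptf1a overlapped, as did those of Rbpj and Tcf4. The other neighbours in this order did not overlap. The order of the lower 4 depends on length too. Over the longest principal transcript Tcf12 stood above Tcf3 in control, as given below. That transcript has 5440 bases for Rbpj and 8577 for Tcf4, against 12750 and 27382 bases of exon, so their order is not fixed either. The nearness of Rbpjl and Ptf1a depends on length and count: the control ratio of Rbpjl to Ptf1a, given below for these counts, was 2.12 to 3.79 over the longest principal transcript and 4.39 to 6.47 on counts without strand. In knockouts Rbpjl stood at 103 and Ptf1a at 26.2 CPM per kilobase, with no overlap. Among 12468 protein-coding genes Rbpjl ranked 230th in control and 108th in knockout, and Ptf1a 283rd and 327th. The acinar-restricted subunits were thus far above the shared ones on this scale, in which reads that overlap an antisense gene are all credited to the member.

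**Figure D3:**
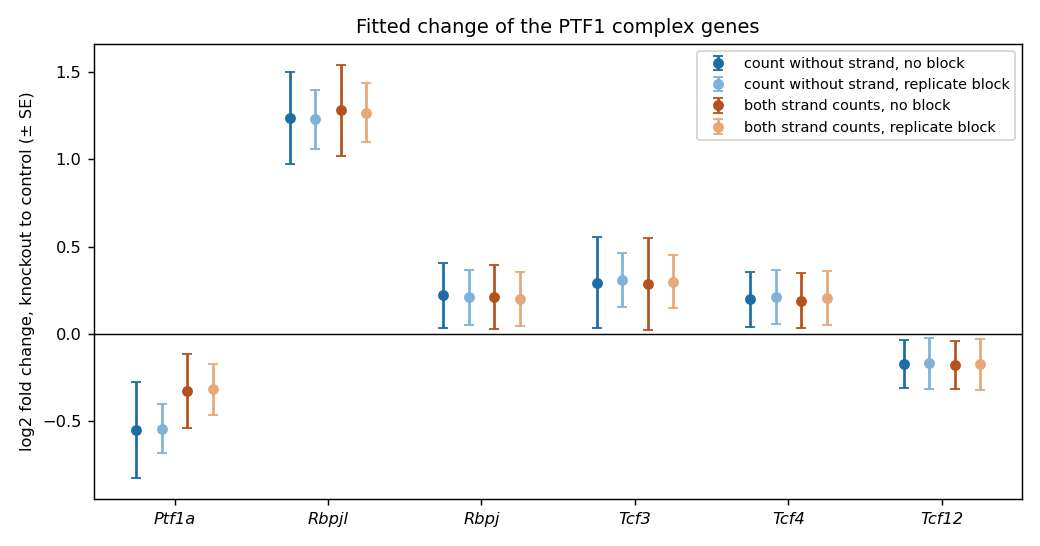
Log2 fold change of each member, knockout against control, with bars of 1 standard error, from edgeR without and with the replicate block and on counts without strand and with both strands added. Rbpjl lies between 1.23 and 1.28, Ptf1a moves from -0.55 without strand to -0.33 with both strands, and without the block the others lie between -0.17 and 0.29 on the counts without strand.

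Ratios within a library do not depend on scaling between libraries. On added strand counts and per kilobase, the ratio of Rbpjl to Ptf1a was 1.48, 1.62 and 0.910 in controls and 4.64, 4.32 and 2.94 in knockouts. The groups did not overlap: the log2 ratio went from 0.38 ± 0.448 (SD, n = 3) to 1.96 ± 0.354, a difference of 1.59. The exact two-sided permutation test gave p = 0.10, the smallest that 3 against 3 allows, and the exact paired test gave p = 0.25, the smallest that 3 pairs allow. On counts without strand the difference was 1.77, also with an exact p of 0.10 and 0.45 after adjustment over the 6 ratios and shares tested.

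The ratio of Rbpjl to Rbpj, the interchangeable subunits, was 73.7, 103 and 58.4 in controls and 152, 272 and 99.7 in knockouts. It was higher in the knockout of each pair, while knockout replicate 3 fell within the controls' range. The log2 ratio went from 6.25 ± 0.414 (SD, n = 3) to 7.33 ± 0.728, a difference of 1.07 with an exact permutation p of 0.20. The log2 ratio of Ptf1a to the summed E proteins differed by -0.47 on added strands and by -0.70 without strand, with an exact permutation p of 0.30 in both. Among the males alone these differences were 0.24 and 0.10, the other way round.

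Of the summed E protein counts per kilobase of exon, without strand, Tcf3 supplied the largest part, 59.1%, 51.6% and 47.2% in controls and 66.4%, 54.9% and 54.1% in knockouts. The Tcf12 share was 26.6%, 33.7% and 37.3% in controls and 20.7%, 28.4% and 28.8% in knockouts. It was lower in the knockout of each pair, with group ranges that overlapped, and its mean of 32.5% ± 5.48 (SD, n = 3) in control and 26.0% ± 4.56 in knockout gave an exact permutation p of 0.30. The Tcf4 share ran from 14.3% to 15.4% in controls and from 12.9% to 17.0% in knockouts. The order of Tcf3 and Tcf12 depended on the length used: over the longest principal transcript, Tcf12 supplied 40.1% and Tcf3 36.2% in control, and 33.0% and 41.5% in knockout.

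**Figure D4:**
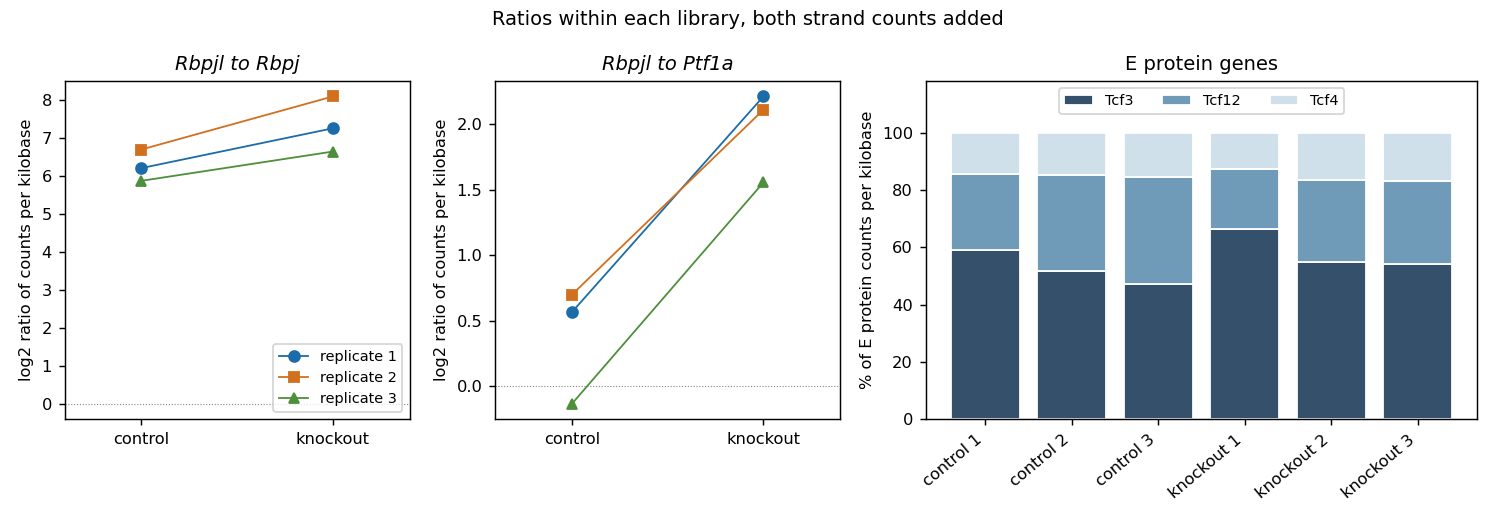
Log2 ratios of Rbpjl to Rbpj and of Rbpjl to Ptf1a with lines joining same-numbered libraries, and stacked bars with the percent of Tcf3, Tcf12 and Tcf4 in their sum, per kilobase in each library on added strand counts. Before the log, the Rbpjl to Ptf1a ratio is 0.910 to 1.62 in controls and 2.94 to 4.64 in knockouts, while the E protein shares overlap between groups.

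Other partners and inhibitors compete for the same E proteins. Of 15 other class II bHLH partners listed, 5 passed the filter, and none was called without or with the block. At an unadjusted p under 0.05, 1 of them passed, against 16.7% of all genes. Their median log2 fold change was 0.28 against 0.02 for all genes. The largest differences were those of Atoh8 (2.13 CPM in control and 0.935 CPM in knockout, log2 fold change -1.18, edgeR adjusted p = 0.142, and 0.0590 with the block), Lyl1 (0.64) and Neurod1 (0.51), all at low levels. Of 7 inhibitors, 5 passed the filter and none was called or passed an unadjusted p under 0.05, with a median of 0.14. Id1, Id3 and Id2, which hold E proteins in inactive dimers, had log2 fold changes of 0.61, 0.52 and -0.15.

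The cofactors of RBPJ join it to activating or repressing machinery. All 23 passed the filter, none was called without or with the block, and the median was 0.06. At an unadjusted p under 0.05, 4 of the 23 passed, near the 16.7% of all genes. Kmt2d, a histone methyltransferase, averaged 24.8 CPM ± 7.67 (SD, n = 3) in the controls and 40.2 CPM ± 8.87 in the knockouts (log2 fold change 0.70, edgeR adjusted p = 0.212, and 0.0660 with the block). Kat2a and Crebbp, both acetyltransferases, had log2 fold changes of 0.45 and 0.40.

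The next list holds 16 genes of the Notch pathway, taken because RBPJ is its DNA-binding protein. Whether each of them acts through RBPJ was not tested. Of the 16, 12 passed the filter, with a median log2 fold change of 0.38. Among the 12, 9 were higher and 3 lower, beside 6866 higher and 6249 lower among all genes tested. Without the block 3 passed an unadjusted p under 0.05, against 16.7% of all genes. Only Dtx1, a ubiquitin ligase of the Notch pathway, was called, against 0.945% of all genes. It measured 23.3, 28.4 and 26.8 CPM in controls and 45.8, 40.5 and 43.1 CPM in knockouts. The groups did not overlap, as upward in 12.0% of all genes. Dtx1 rose by 0.72 on the log2 scale (SE 0.13, edgeR adjusted p = 0.0493, and 0.0133 with the block). That call is close to the threshold: over 20 alternatives the adjusted p ran from 8.54e-05 to 0.207, 9 of the 20 made the call, and it was lost without control replicate 2 or 3 and without any 1 of the knockouts.

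The receptor gene Notch1 was not called by edgeR without the block and was called with it. It measured 10.4, 4.89 and 12.8 CPM in controls and 23.6, 21.0 and 31.9 CPM in knockouts, with no overlap, as upward in 12.0% of all genes. Its log2 fold change was 1.45 (SE 0.35; edgeR adjusted p = 0.128), and with the block 1.52 (adjusted p = 0.00116). Of 20 alternative fits 5 called it: the block with either count, library totals, no filter and DESeq2. In DESeq2 2 genes of the list were called, against 4.53% of all genes, and in limma-voom none. Dll1, a ligand gene, had a log2 fold change of -0.85 (adjusted p = 0.533). Of the Notch targets Hes1 and Heyl, both named here outside the naming rule, Hes1 had mean levels of 5.32 and 5.43 CPM and a log2 fold change of 0.03. Heyl had 4.07 and 6.25 CPM and a log2 fold change of 0.62 (edgeR adjusted p = 0.227, and 0.145 with the block). Notch genes are also active in duct, endothelial and stromal cells. The 10 duct markers summed to 209 to 248 CPM in controls and 200 to 306 CPM in knockouts, but they moved in both directions. None of the 10 was called without the block, and 8 passed an unadjusted p under 0.05, against 16.7% of all genes. DESeq2 called 4, against 4.53% of all genes, and limma-voom none. The block called 4 higher and 2 lower, against 5.99% of all genes called. Spp1 averaged 62.3 CPM in control and 131 CPM in knockout, and Muc1 100.2 and 59.5 CPM. The 8 endothelial markers summed to 111, 25.3 and 43.5 CPM in controls and 128, 37.2 and 47.5 CPM in knockouts, and the 9 fibroblast and stellate markers to 104, 25.9 and 34.9 CPM and 115, 26.2 and 103 CPM. Both sums were higher in the knockout of all 3 pairs while the groups overlapped, and none of these markers was called without or with the block. All 7 macrophage markers had a positive log2 fold change (median 1.14), and none was called without the block. Among them 1 passed an unadjusted p under 0.05 and 4 were called higher with the block, beside 16.7% and 5.99% of all genes. The part of these cells in the Notch values was not tested.

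The acinar transcription factors that act beside PTF1 had a median of 0.06, with 21 of 22 past the filter. Without the block none was called and 2 passed an unadjusted p under 0.05, against 16.7% of all genes. With the block Prox1 was called, against 5.99% of all genes. Prox1 measured 3.87, 1.36 and 3.45 CPM in controls and 6.35, 4.60 and 10.8 CPM in knockouts, with no overlap, as upward in 12.0% of all genes. Its log2 fold change was 1.31 (edgeR adjusted p = 0.237, and 0.00742 with the block). Onecut1 had a log2 fold change of 0.96. Bhlha15, which encodes the secretory maturation factor MIST1, averaged 224 CPM ± 52.7 (SD, n = 3) in the controls and 165 CPM ± 8.96 in the knockouts, a log2 fold change of -0.44 with an adjusted p of 0.304. Its sign was lost with library totals and with sex as a covariate, and control replicate 1, the male control, stood at 163 CPM beside the knockouts. DESeq2 and limma-voom called none of the bHLH partners, inhibitors, cofactors or acinar factors.

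The secretory list holds digestive enzyme and granule genes known as products of PTF1-driven cells. Of 37 listed, 36 passed the filter, and 33 were lower and 3 higher, with a median log2 fold change of -0.52. Among all 13115 tested genes 6249 were lower and 6866 higher. With library totals that median was -0.09, beside 0.43 for all genes, so the list was lower than the rest under either scaling while the size of its own decrease was not fixed. Without the block only Prss3 was called, against 0.945% of all genes, although 26 had an unadjusted p under 0.05, against 16.7%. DESeq2 called 20 of the list, against 4.53% of all genes. From limma-voom 1 was called, among 84 genes called in all. With both strand counts added and no block, Prss1 (log2 fold change 1.87, edgeR adjusted p = 0.00443) and Cela2a (-1.01, adjusted p = 0.0469) were called as well. The block gave 2 calls of higher and 7 of lower level, against 5.99% of all genes called. The share of all gene counts that fell to this list was 76.5%, 79.3% and 77.9% in controls and 74.3%, 73.9% and 74.3% in knockouts, with no overlap. Gene counts leave out reads mapped to several places, which were 26.0% to 28.4% of all reads in controls and 21.6% to 24.1% in knockouts. How many of those came from this list is not known. Sex is partly confounded with genotype for this list too, and the male control, replicate 1, stood differently from gene to gene. For Cela1 it had 65687 CPM, near the knockouts at 61115 to 62907 CPM, while the female controls had 91155 and 91766 CPM. For Cela2a it had 80123 CPM, above the knockouts at 45377 to 52879 CPM. The part of sex in the difference of the whole list was not tested.

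The 7 that were lower with the block were Cela2a, Cpb1, Cuzd1, Gp2, Spink1, Serpini2 and Try10. Cuzd1, a zymogen granule protein, averaged 1511 CPM ± 363 (SD, n = 3) in the controls and 571 CPM ± 238 in the knockouts, a log2 fold change of -1.40 with an adjusted p of 0.0904 in edgeR, 0.00342 with the block. Gp2, the main glycoprotein of the granule membrane, had a log2 fold change of -1.08 (edgeR adjusted p = 0.0698, and 0.00919 with the block). Cela2a measured 80123 to 117168 CPM in controls and 45377 to 52879 CPM in knockouts (edgeR adjusted p = 0.0522, and 0.0109 with the block). The 2 called higher, Prss3 and Try5, are trypsinogen genes of a family of near-identical copies, as is Prss1, which measured 1.70, 2.83 and 4.43 CPM in controls and 16.2, 9.42 and 9.79 CPM in knockouts without strand. Prss3 measured 89.1 to 143 CPM in controls and 719 to 1043 CPM in knockouts, a log2 fold change of 2.88 with an adjusted p of 0.00166 in edgeR. Reads that mapped to several places went to no gene. How many reads each trypsinogen copy, Try10 included, lost in this way is uncertain.

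**Figure D5:**
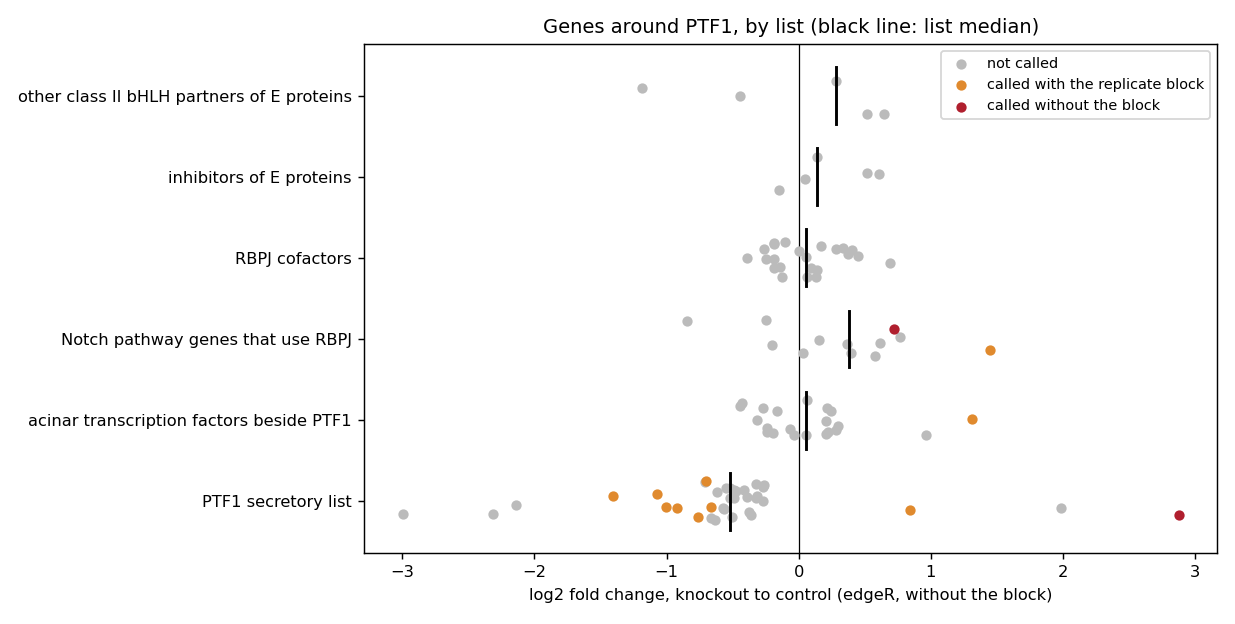
Log2 fold change of each tested gene in the 6 lists around PTF1, knockout against control from edgeR on counts without strand, with a black line at the median of each list and colours for genes called without or with the block. The secretory list is centred at -0.52 and the Notch list at 0.38, while the RBPJ cofactors and acinar factors lie at 0.06, near the 0.02 of all genes.

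The promoter letters shown above can be set beside these values as a description. Of the 37 secretory genes, 28 had a RefSeq window, and 9 of them (32.1%) held an E box and TC box pair, against 7.97% of 27025 genes. The 9 with a pair had a median log2 fold change of -0.49, with 8 of 9 lower. Of the 18 tested genes without a pair in any window, 17 were lower, with a median of -0.51. The log2 fold changes spanned -2.99 to 1.99 with a pair and -2.31 to 2.88 without one, and the difference between the sets was not tested. Rbpjl and Rbpj, the members with a pair, had log2 fold changes of 1.24 and 0.22.

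The genes whose levels ran most like those of Ptf1a over the 6 libraries, among protein-coding genes of at least 10 CPM on average, were Fkbp4 (Pearson r = 0.989), Vma21 (0.987) and Hectd3 (0.986), and 38 of 3889 genes had an r above 0.95. For Rbpjl they were Pacs2 (0.993), Mapk8ip3 (0.993) and Fpgs (0.987), and 29 of 3888 were above 0.95. Mapk8ip3 went from 14.3, 18.2 and 13.3 CPM in controls to 26.2, 32.6 and 20.2 CPM in knockouts. These are descriptions over 6 libraries that share scaling, sex and pair number, chosen as the highest among all those compared. They use counts without strand, which left out 73.2% to 83.5% of the reads over Ptf1a. On those counts the highest Ptf1a level was in control replicate 2 (14.0 CPM), and with both strand counts added in control replicate 3 (60.2 CPM). Likeness on the added counts was not computed, so the genes named for Ptf1a hold for the counts without strand only.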

How the data were processed

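The authors deposited raw counts per gene from 6 libraries, each table with 1 count regardless of strand and 1 for each strand. Alignment used STAR 2.7.10a and build GRCm39 (mm39), per the submitters' processing notes. The annotation release is not given in the sources used here. Per the labels' protocols, RNA was poly-A selected and primed with random hexamers. The rows outside genes were left out of library sizes. Reads mapped to several places, which went to no gene, were 26.0% to 28.4% of all reads in controls and 21.6% to 24.1% in knockouts. Symbols and exon lengths came from GENCODE M21 (GRCm38), which names 52081 of 55414 identifiers (94.0%), so no gene coordinates are given beyond the RefSeq promoter stretches. No 2 libraries agreed within sampling noise.

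Genes passing filterByExpr were tested with edgeR 4.0.16 (TMM factors, robust quasi-likelihood fit) in R 4.3.3, with Benjamini-Hochberg adjustment over all genes tested and a threshold of 0.05. This edgeR fit without the block was tested on simulated data that held no pair or sex effect. The blocked fit, the fit with sex, DESeq2 and limma-voom were not tested in this way. CPM use TMM library sizes, and log2 CPM a prior count of 2. Alternatives used DESeq2 1.42.0, limma-voom (limma 3.58.1), other scalings, filters and strands, sex, a replicate block and left-out libraries. Adding both strand counts, leaving out pairs from the block and principal transcript lengths were chosen after seeing the data. Deviations from the group means correlated at 0.630, 0.455 and 0.285 in the same-numbered pairs, and at -0.496 to 0.210 in others. The 0.210 was that of control replicate 3 with knockout replicate 2, close to the 0.285 of pair 3. The labels state no pairing. Taking the numbers as pairs thus rests on the same data that the blocked fit tests, and blocked p-values hold only if the pairing is real. Ratios were compared with exact permutation tests. A planned comparison of protein sequences was not made. Members and lists were chosen with earlier results of these data known. The naming rule took Trip12, all members and their pseudogenes and antisense genes, every called list gene, and otherwise the 3 largest changes of a list; other genes were chosen after their values were seen.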

Additional observations from a re-analysis of the deposited data

How the results depend on the processing

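Blocking on the replicate number (replicate block) took the genes called from 124 to 785, the members called from 0 to 2 and the list genes called from 2 to 12, and the block changed no other member's call. Genes called numbered 1519 with library totals, 850 with no filter, 210 with at least 10 counts in every library, 594 in DESeq2, 21 with sex as a covariate, 801 with both strand counts added and the block, and 20 to 461 leaving out 1 library (461 without control replicate 1). Of the members, 1 was called with library totals, with either filter, in DESeq2, on either strand, with both strands added and the block or library totals, and with the block without pair 1 or 3. It was Rbpjl each time, with log2 fold changes of 1.66, 1.24, 1.26, 1.21, 1.32 and 1.26 on the forward and reverse strands, 1.27 and 1.71 with both strands, and 1.12 and 1.32 (1.17 and 1.37 with both strands) without pairs 1 and 3. With the block on all pairs it was 1.23, and Ptf1a was -0.54. The share of all genes called was not counted for both strands with library totals or for the block without a pair. The 6 lists held 5, 5, 23, 12, 21 and 36 tested genes in the main fit, in the order given above. Bhlha15 is in both the bHLH partner and the acinar factor lists. List genes called were 18 with library totals and 13 with no filter, against 11.6% and 3.3% of all genes. With at least 10 counts, on the forward strand and on the reverse strand they were 5 each, against 1.89%, 1.31% and 1.15%. List genes called were 22 in DESeq2, 4 with both strands and 13 with both strands and the block, against 4.53%, 1.19% and 5.51%. They were 1 with RLE factors, without the secretory list in TMM, in limma-voom, without robust dispersion and with sex, and 1 to 21 leaving out 1 library. For these last fits the share of all genes called was not counted.

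Directions that turned were Ptf1a (0.11 with library totals and 0.087 with sex, both on added strands), Tcf3 with sex (-0.15, and -0.16 on added strands), Tcf4 with sex (-0.052 and -0.064) and Tcf12 with library totals (0.23 with either count). Bhlha15 turned to 6.7e-05 with library totals and 0.014 with sex. Among low genes, Id1 turned to -0.37 with sex, Id2 to 0.27 with library totals, Id3 to -0.39 with sex, and Lyl1 to -0.66 with sex, -0.011 on the forward strand and -0.0088 with both strands and the block. Leaving out 1 library, Id2 ran from -0.26 to 0.037 (turned without control replicate 3), Id3 from -0.39 to 1.34 and Neurod1 from -0.33 to 0.98 (both turned without knockout replicate 1). Among males only, the log2 of Ptf1a to the E proteins differed by 0.10 (0.24 on added strands) and the Tcf3 share by -0.66 (-0.68) percentage points. The Tcf4 share differed by -0.66 points on the reverse strand and by -0.040 to 2.05 points leaving out 1 library (turned without knockout replicate 3, -0.045 there on added strands). The cause of these changes was not tested. Low counts limit Ptf1a, Rbpj and the E proteins, and 3 against 3 libraries cannot go below an exact p of 0.10.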

Other observations

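Matn4, the cartilage matrix gene that lies antisense to the Rbpjl exons, took opposite directions under the 2 ways of counting. Without regard to strand it had 385, 364 and 335 counts in controls and 423, 424 and 390 in knockouts, a log2 fold change of -0.21 with an adjusted p of 0.499 in edgeR. With both strand counts added its mean went from 48.2 to 116 CPM, a log2 fold change of 1.26 with an adjusted p of 0.0458. The counts gained were the same number as those gained by Rbpjl in 6 of 6 libraries, between 72.0% and 92.5% of all reads over Matn4. Its call with added strands therefore rests on reads that both genes share.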
